A study of Homo sapiens with 9 samples.

Results

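Transglutaminase 2 (TG2), the product of TGM2, was depleted with small interfering RNA (siRNA) in HCT116 cells, and the transcripts of all genes were compared with those of cells given a control siRNA. HCT116 is an established human colon carcinoma line, labelled wild type in all samples. The comparison rests on 6 of the 9 libraries of the series, 3 named siTG2 and 3 named siControl, chosen by their labels, and the other 3, named siRNF40, received an siRNA against the ubiquitin ligase gene RNF40 and are given only beside them. The siRNAs were delivered with the lipid reagent RNAiMAX, cells of all 3 groups were taken 48 h later, and polyadenylated RNA was sequenced. The knockdown was measured at this single time and at the level of RNA only. The labels do not say whether replicates were separate cultures, so the p-values below measure only the spread between these libraries, which may be technical. Of 63677 genes in the deposited table, the 17663 with a mean of at least 10 normalized reads over the 9 libraries were tested, and 17875 more had reads at a lower mean. Values are deposited normalized read counts, not corrected for gene length, and means carry the SD over 3 libraries (n = 3). Log2 fold changes are siTG2 minus siControl on the log2(value + 1) scale.

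Transglutaminase 2 is a calcium-dependent enzyme that joins glutamine side chains of proteins to lysines or to small amines. Outside the cell it binds fibronectin and acts as a partner of integrins, syndecan-4 and LRP1, and inside the cell GTP switches off its crosslinking activity. It can also attach serotonin to a glutamine of histone H3 beside the lysine 4 methylation mark, the reaction the series is named for, and the transcription factor complex TFIID binds the tail that carries both marks.

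The libraries were close in depth, with 29161285 to 34143599 reads in genes for siControl and 30136581 to 33343878 for siTG2, and 1 read equals 0.880 to 1.10 normalized units. With the deposited scaling, the normalized total of siTG2 was 90.6% of that of siControl. The epithelial marker EPCAM stood at 9103 to 9472 in siControl and at 7206 to 7739 in siTG2. In the 6 libraries KRT8 stood at 34703 to 41719 and the intestinal factor CDX2 at 314 to 342, while the differentiation markers KRT20, VIL1, CDX1 and LGALS4 were at most 22.0. In the test described below, 3 of 6 tested markers of colon epithelium were called lower (EPCAM, KRT19 and CDH1) and 0 higher. With libraries scaled to equal totals 2 were lower, and under quantile normalization 0 were lower and 2 higher. Genes of the mitochondrial chromosome, 37 in the table, are listed at 0 in all libraries, so these entries give no measure of mitochondrial transcripts.

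TGM2 (ENSG00000198959, chr20:36756863-36794980 on the minus strand in build hg19) was measured at 559, 702 and 554 in siControl replicates 1, 2 and 3 and at 59.4, 121 and 155 in siTG2. The siTG2 libraries all lay below the controls, and the transcript left in replicate 1 was the lowest of the 3. The mean fell from 605 ± 84.4 to 112 ± 48.6, or 18.5% of the control, a log2 fold change of -2.52 (SE 0.23, limma adjusted p = 1.1e-07). An exact permutation of the 6 libraries (two-sided) returned p = 0.1, its lower limit with groups of 3. In siRNF40 the gene stood at 839, 829.6 and 963. Of the other transglutaminase genes, TGM1 (the keratinocyte enzyme) had 88.8 ± 7.68 and 88.4 ± 17.3 (log2 fold change -0.02, adjusted p = 0.95), and TGM4 (the prostate enzyme) and EPB42 (a catalytically inactive member) were tested and not called.

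The genes that moved included FOSL1, GINS2, MGLL and ZYX, which fell, and ID2, NQO1, FN1 and SLC4A8, which rose, all described below. With limma on log2(value + 1), fitted over all 9 libraries, with calls made where the adjusted p (Benjamini-Hochberg) was below 0.05, 3270 of 17663 genes (18.5%) were lower in siTG2 and 2263 (12.8%) were higher. This balance depends on the scaling, since with libraries scaled to equal totals 1890 genes were lower and 3872 higher. That scaling moved the median log2 fold change of all tested genes from -0.00685 to 0.135, and the directions of gene lists below are stated with their values under it where they differ. On the deposited scaling, summed siTG2 values over those of siControl also fell with the level of the gene. The ratio was 1.22 for genes with a siRNF40 mean of 30 to 100, 0.930 for 1000 to 3000, 0.890 for 3000 to 10000 and 0.866 above 10000. The gene lists below were not compared with genes of like level, so their counts do not separate a list from its level. Changes of at least 2-fold were called higher in 612 genes (3.46%) and lower in 253 (1.43%). Protein-coding genes were called lower in 22.5% and higher in 14.6% of 13678 cases. Counts of called list members below stand beside these shares and those over all tested genes. List counts with equal totals stand beside its 1890 lower and 3872 higher genes of 17663. Of 1269 antisense genes 3.94% were lower and 6.93% higher, and of 1006 long intergenic genes 6.46% and 8.05%. The libraries of the 2 groups did not overlap for 46.5% of all tested genes. The authors' deposited table holds 3244 lower and 2316 higher genes at the same threshold, and 5360 (96.9%) of the genes called here have the same direction and call in that table.

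**Figure D1:**
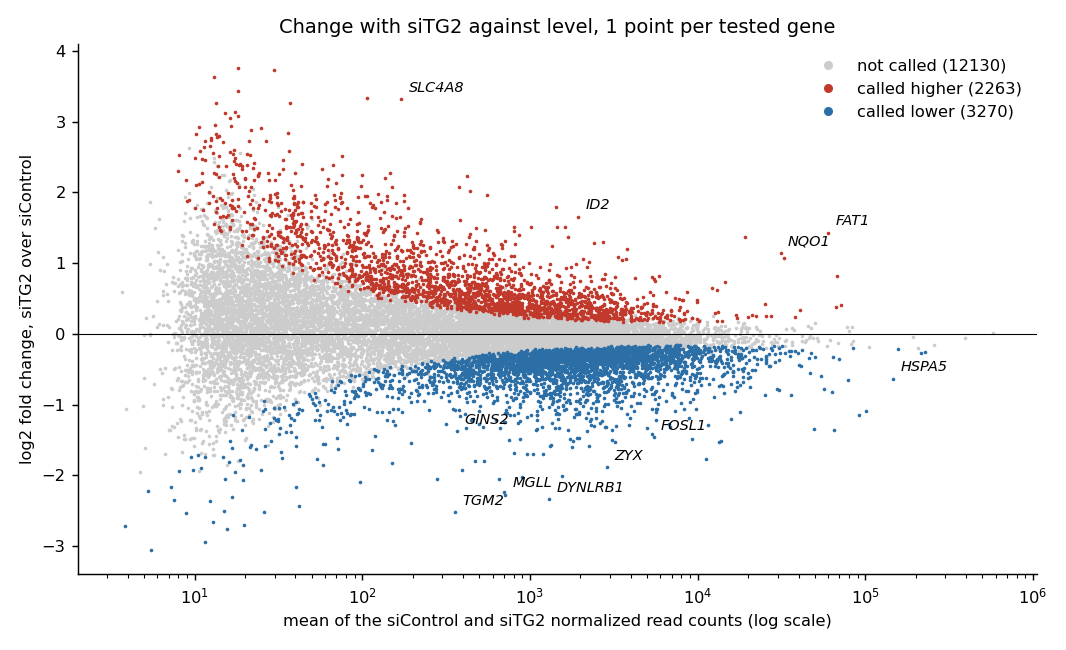
Log2 fold change of siTG2 over siControl against the mean normalized read count of both groups (log scale), 1 point per tested gene. Called higher genes (2263, red) and called lower genes (3270, blue) lie on both sides of the uncalled ones (grey), which spread wider at low counts, and TGM2 lies at -2.52 and SLC4A8 at 3.32.

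Below TGM2 itself, the largest falls among genes with a mean of at least 100 were in DYNLRB1, MGLL and FTO, which kept 19.9%, 20.7% and 21.1% of their control means. DYNLRB1 (chr20:33104214-33128762), a light chain of cytoplasmic dynein, had 2127, 2262 and 2133 in siControl and 345, 458 and 497 in siTG2 (log2 fold change -2.34, SE 0.11, adjusted p = 2e-11). MGLL (chr3:127407909-127542051), the lipase that breaks down the endocannabinoid 2-arachidonoylglycerol and other monoacylglycerols, had 1216, 1225 and 1092 and then 256, 261 and 213 (-2.27, SE 0.11, adjusted p = 2e-11). FTO (chr16:53737875-54155853), a demethylase of N6-methyladenosine in RNA, had 1208, 1102 and 1171 and then 257, 244 and 235 (-2.24, SE 0.1, adjusted p = 1.9e-11). In all 3 genes every siTG2 library lay far below every control. The siTG2 means were 434 ± 79.3, 244 ± 26.5 and 245 ± 11.4, so the siTG2 libraries were spread widest for DYNLRB1. ZYX (chr7:143078173-143088204), which encodes zyxin of focal adhesions and stress fibres, was the most abundant of the 12 and had 4379.8, 4855 and 4338 in siControl against 1157, 1261 and 1241 in siTG2 (-1.89, SE 0.086). ABHD2 (chr15:89630690-89745591), a serine hydrolase, fell from 2482 ± 185 to 617 ± 36.7 (-2.01). CHCHD10 (chr22:24108021-24110630), a protein of the mitochondrial intermembrane space, fell from 1439.8 ± 98.1 to 353 ± 22.6 (-2.03). Calcium and calmodulin binding proteins of neurons were also among the 12, with CALB2 (calretinin) at 729.8 ± 16.4 and then 211 ± 35.6 (-1.80) and NRGN (neurogranin) at 236 ± 36.6 and then 65.5 ± 10.2 (-1.83). C1orf116 (-2.05), TMEM158 (-2.05) and ARL14EPL (-1.92) complete the list.

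The fall of these genes was measured against the other knockdown as well. All 12 were lower in siTG2 than in siRNF40 in the direct contrast of the same fit, where 53.3% of all tested genes were called in either direction. DYNLRB1 differed by -2.61 on the log2 scale (adjusted p = 1.1e-12) and C1orf116, which was higher in siRNF40 than in siControl (1.16), by -3.21 (adjusted p = 3e-13). ABHD2 was lower than control in siRNF40 too (-0.99, adjusted p = 2.8e-07) and differed less, by -1.02 (adjusted p = 1.1e-07). Both contrasts use the same siTG2 libraries, so they are not independent.

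Several of the genes that fell share a short word in the 3′ untranslated region (3′ UTR), the stretch behind the coding sequence where miRNAs commonly pair with messages. The transcripts of 13167 protein-coding genes (96.3% of those tested; GENCODE 29 annotation on GRCh38) were searched for each of 14500 words of 7 bases held by at least 200 genes. GCGCCCT had the largest excess of genes called lower, so it was picked on these same data, and its shares are a description with no test. Other words had an excess too. The words ranked next were TGCGCCC (35.1% of its holders called lower), CGCCCTT (34.0%) and GCGCCCC (32.8%), which overlap it in part. CACGCGC (32.7%) and GTCCCCG (31.7%), which share less with it, were among the first 10. The sites are printed because 4 of the 12 genes that fell most hold the word there, and TGM2 holds it in the coding sequence. Each is written 5′ to 3′ in the sense of the message, with the word in capitals.

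TGM2, coding sequence, chr20:38139571-38139598, minus strand: accaagtacgatGCGCCCTttgtctttg
MGLL, 3′ UTR, chr3:127691779-127691806, minus strand: gctcacgccccaGCGCCCTctctgacca
ABHD2, 3′ UTR, chr15:89196168-89196195, plus strand: tgctgttcaacaGCGCCCTtaaattgga
ZYX, 3′ UTR, chr7:143390960-143390987, plus strand: actgctgcacccGCGCCCTcggccggcc
NRGN, 3′ UTR, chr11:124746731-124746758, plus strand: gcactgcggaggGCGCCCTaagcgtcac
EVI5L, 3′ UTR, chr19:7863789-7863816, plus strand: ttgacaaactacGCGCCCTctgtggctc
TSPAN18, 3′ UTR, chr11:44929464-44929491, plus strand: acaccaggcccaGCGCCCTctttggtcc

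The word stands in the 3′ UTR of 428 genes, and 38.6% of them were called lower in siTG2, against 22.5% of the 12739 genes without it. Falls of at least 2-fold were in 8.18% of the holders and 1.15% of the others. In siRNF40, against the same controls, 20.3% of the holders and 29.2% of the others were called lower. Where the word stood in the coding sequence and not in the 3′ UTR, 30.3% of 1136 genes were lower, and where it stood nowhere in the transcript, 21.5% of 11085. Holders have a 3′ UTR richer in G and C (median 54.0% against 42.8%) and longer (2056 against 1286 bases). With genes split in 3 equal classes by the G and C content of the 3′ UTR, 40.5% of 291 holders and 22.2% of the others were lower in the richest class. These shares were 36.2% of 116 holders and 22.1% in the middle class, and 23.8% of 21 holders and 23.2% in the poorest. With genes split by the length of the 3′ UTR, 44.6% of 65 holders and 21.6% of the others were lower in the shortest class. The shares were 45.4% of 152 holders and 22.7% in the middle class, and 31.8% of 211 holders and 23.3% in the longest.

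Among the 12 largest falls, 4 genes hold the word in the 3′ UTR, namely MGLL, ABHD2, ZYX and NRGN, and NRGN and TSPAN18 hold it at 2 sites. Among the 12 largest increases, CASC10 holds it. Of 181 searched genes with a fall of at least 2-fold 35 (19.3%) have the word, and of 443 with a rise of that size 14 (3.16%). EVI5L, a GTPase-activating protein, went from 1587 ± 73.6 to 492 ± 93.4 (-1.71), and TSPAN18, a tetraspanin, from 1443, 1488 and 1488 to 426, 427 and 518 (-1.69). DYNLRB1, FTO, CALB2 and the other 4 of the 12 largest falls, TGM2 set aside, do not have it in the 3′ UTR. Members of gene lists described below that hold the word in the 3′ UTR include FOSL1, WDR5, GPR56, CTSD and PRC1, all called lower. TCF7L2 and KMT2D, also holders, were not called. None of 2545 mature human miRNAs of RefSeq has AGGGCGC, the reverse complement of the word, as its seed (bases 2 to 8). The sequences of the siRNAs were not analysed here, and whether the word bears on the falls was not tested.

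SLC4A8 had the largest rise among genes with a mean of at least 100 over the 9 libraries and no overlap between groups. This sodium-driven bicarbonate exchanger, which loads cells with base (chr12:51785101-51902980, plus strand), had 34.2, 37.0 and 21.7 in siControl and 266, 341 and 329 in siTG2. Each siTG2 library was several times above the highest control, with a log2 fold change of 3.32 (SE 0.28, adjusted p = 3.9e-08). CARNS1 (chr11:67182439-67193078), the synthase of the dipeptide carnosine, had 48.6, 68.3 and 35.1 and then 255, 237 and 233 (2.28, SE 0.28, adjusted p = 3.9e-06). FOLR1 (chr11:71900602-71907345), the folate receptor alpha, had 35.3, 56.9 and 54.7 and then 215, 262 and 199 (2.20, SE 0.27, adjusted p = 4.2e-06). These genes were low in siControl and moderate in every siTG2 library, with no overlap. The mean of at least 100 includes the siTG2 libraries, and these genes reached it only through them, with siRNF40 means of 49.4, 41.0 and 40.4. The same holds for IFNE, OLFML2B, LRP1B, SMAD6 and GPR162 below. A low control level beside a high siTG2 level is thus in part fixed by how the genes were chosen.

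The rest of the 12 largest increases were of varied kinds. PALM3, a paralemmin of the membrane cytoskeleton, rose from 152 ± 50.1 to 696 ± 125 (2.23), FAM46C, a noncanonical poly(A) polymerase, from 144 ± 25.6 to 607 ± 70.7 (2.08), and CASC10 from 228 ± 60.1 to 879.7 ± 105 (1.97). IFNE, interferon epsilon of epithelia, rose from 59.0 ± 20.8 to 242 ± 26.1 (2.08). It shares its span with MIR31HG on the same strand, which went from 56.8 to 159.7 (log2 fold change 1.47, adjusted p = 0.00027), so reads of the pair may be split between them. NOVA2, a splicing factor of neurons, rose from 175 ± 43.5 to 704 ± 49.6 (2.03) and stood at 327, 371 and 340.5 in siRNF40, between the groups. LRP1B (1.96), OLFML2B (1.98), GPR162 (1.87) and SMAD6 (1.95), an inhibitor of bone morphogenetic protein signals, rose as well. All 12 were higher in siTG2 than in siRNF40 in the direct contrast, from NOVA2 (1.02, adjusted p = 1.4e-05) to IFNE (3.89, adjusted p = 2.6e-08). All had a siControl mean of 228 or less, a range in which genes as a whole took more reads in siTG2. Genes with a siRNF40 mean of 30 to 100 took 1.35 times the RPM (reads of a gene per fixed library total) of siControl, and those of 100 to 300 took 1.24 times. On the deposited scaling used for the fold changes these ratios were 1.22 and 1.12. Of the 24 genes named here, 7 overlap another tested gene, 5 of them on the opposite strand, and whether counting used strand is not given in the sources used here.

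**Figure D2:**
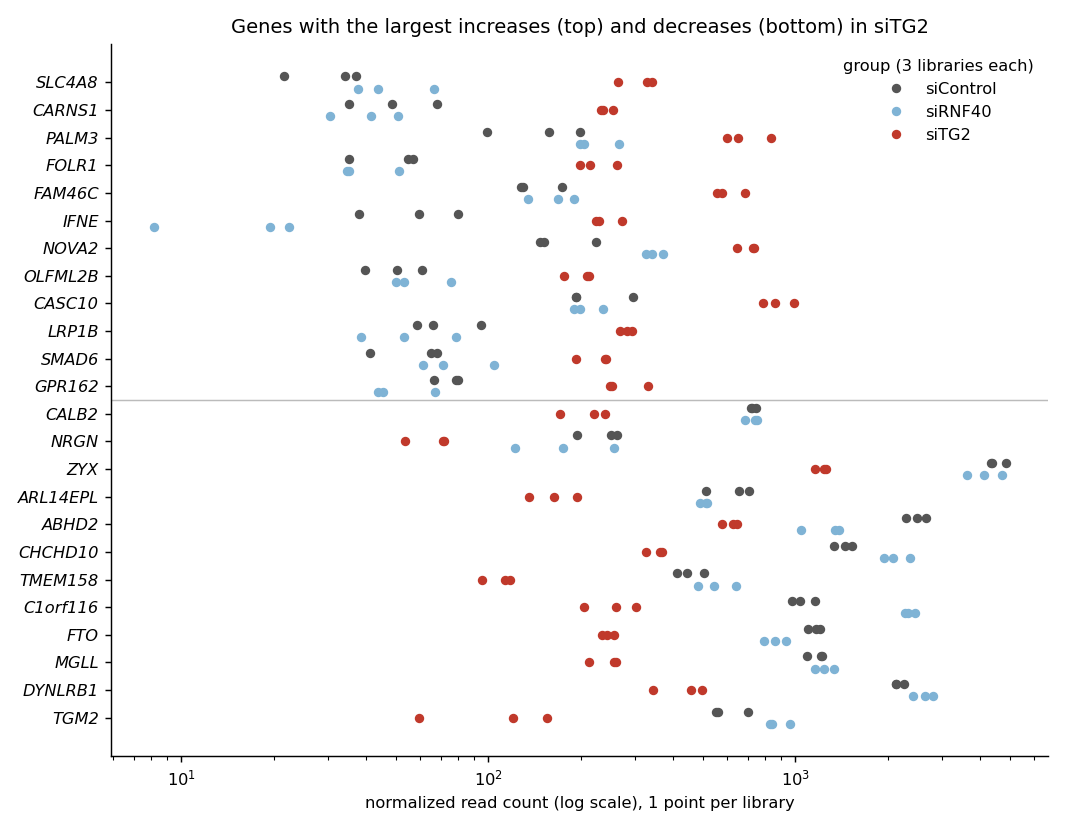
Normalized read counts (log scale, 1 point per library) of the 12 genes with the largest increases and the 12 with the largest decreases in siTG2. Red siTG2 points lie right of all grey siControl points above the line (SLC4A8 31.0 to 312 in the mean) and left of them below it (DYNLRB1 2174 to 434), with siRNF40 in blue.

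Genes of DNA replication fell together in siTG2. Of 35 listed, all measured, 28 were called lower and none higher, where 18.5% of all tested genes were lower. The median of their log2 fold changes was -0.46, and with equal totals 19 were lower and the median was -0.31. GINS2, part of the helicase that unwinds DNA at the fork, had 523, 526 and 542 in siControl and 179, 191 and 245 in siTG2 (-1.38, SE 0.16, adjusted p = 1.8e-06). CDT1, which loads that helicase at origins, had 1866, 1724 and 1563 and then 744, 1024 and 997 (-0.91, adjusted p = 2.5e-05). MCM3, a subunit of the ring of the helicase, had 3539, 3654 and 3682 and then 1923, 2072 and 1808 (-0.91, adjusted p = 1.1e-08). In these genes the groups were well apart, and siTG2 kept 38.7%, 53.7% and 53.4% of the control mean. The other subunits of the ring fell too, MCM2 by 0.90, MCM5 by 0.88, MCM4 by 0.62, MCM7 by 0.36 and MCM6 by 0.23. RFC2 (-0.79), of the clamp loader, POLD1 (-0.77) and POLE (-0.64), the catalytic subunits of the replicative polymerases, and CDC6 (-0.65) fell as well, and PCNA, the clamp, fell by 0.30. The calls of MCM6 and PCNA ended with equal totals (-0.09 and -0.16, adjusted p = 0.34 and 0.071) and under quantile normalization (-0.11 and -0.13), and that of MCM6 also without siControl replicate 1 or 3. MCM4 to MCM7, CDC6, PCNA, RFC2, POLD1 and POLE were chosen for mention after their values were seen. The uncalled members include RPA1, which binds single-stranded DNA (3756 ± 123 and then 3379 ± 135, adjusted p = 0.09), and LIG1, the ligase of Okazaki fragments (929 ± 44.1 and then 877 ± 12.8, adjusted p = 0.53). In siRNF40, which shares the controls, the median of the list was -0.77. None of the 35 holds GCGCCCT in the 3′ UTR.

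Replication genes are classical targets of E2F factors, which bind near the start of the gene. Windows of 30 bases of the promoter, from RefSeq on GRCh38.p14, are shown for the members with the largest falls that hold an E2F-type word, in capitals, TTTCCCGC or TTTGGCGC or the reverse complement of either, on the strand of the gene.

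GINS2, chr16:85688967-85688996, minus strand: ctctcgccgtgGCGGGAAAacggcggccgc
CDT1, chr16:88803743-88803772, plus strand: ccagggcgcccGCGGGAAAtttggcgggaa
MCM3, chr6:52284898-52284927, minus strand: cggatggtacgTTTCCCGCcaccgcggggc
RFC3, chr13:33818083-33818112, plus strand: atttggagctcGCGGGAAAacttgtctctg
CDC6, chr17:40287875-40287904, plus strand: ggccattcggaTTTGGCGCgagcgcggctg
POLE, chr12:132687342-132687371, minus strand: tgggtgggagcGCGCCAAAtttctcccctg

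Within 250 bases before and 50 after the start, 15 of 31 replication genes with a promoter in the table (48.4%) hold such a word, against 3.63% of 10213 tested protein-coding genes and 2.31% of all 27305 promoters. The 2 words share TTT at the start and CGC at the end, a promoter with either was counted once, and a match is a run of letters, not a bound site. Among promoters of mitosis genes 2 of 21 hold one, and among those of Wnt targets 0 of 11.

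**Figure D3:**
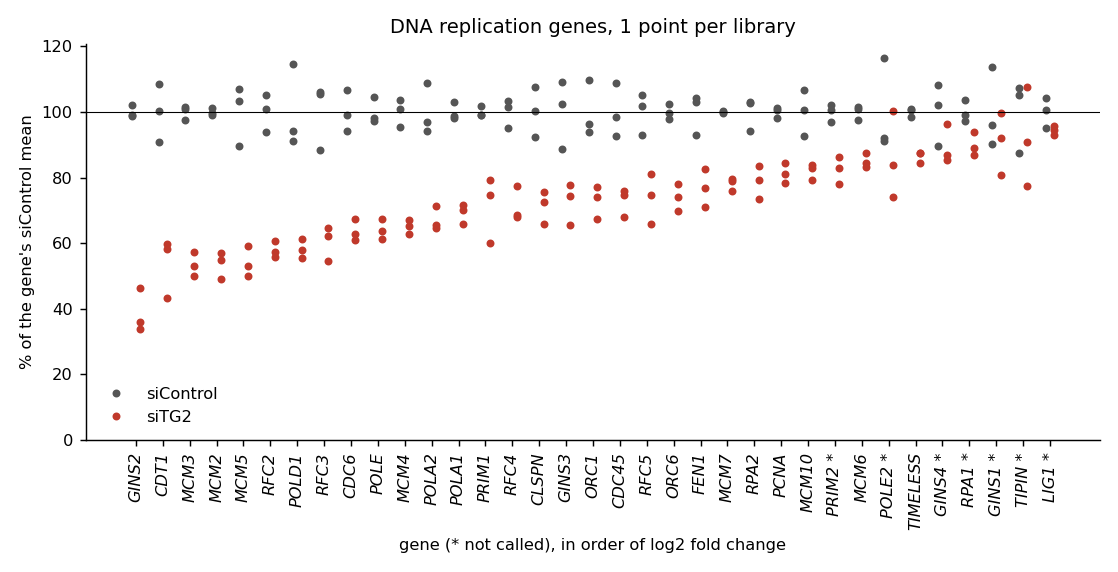
Each of the 35 DNA replication genes in the 3 siControl (grey) and 3 siTG2 (red) libraries, as a percentage of its siControl mean, in order of log2 fold change. The red points rise from GINS2 (38.7% in the mean, log2 fold change -1.38) to LIG1 (94.4%, -0.08), and the 7 genes that were not called are starred.

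Genes of mitosis and G2/M fell as well. Of 25 measured, 16 were lower and none higher (median -0.29), and with equal totals 10 were lower (median -0.14). PRC1, which bundles microtubules of the midzone, fell from 4252 ± 74.6 to 2259.8 ± 155 (-0.91, adjusted p = 9.9e-09), and it is the only member with GCGCCCT in the 3′ UTR. Cyclin B2 (CCNB2, -0.61), the kinesin KIF2C (-0.55) and the kinase AURKB (-0.49) fell, while CENPF (9255 ± 317 and then 8980.3 ± 574) and CDC20 (6894 ± 339 and then 6178 ± 499) were not called.

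Regulators of G1 moved both ways, with 8 of 23 (34.8%) lower and 4 (17.4%) higher (median -0.15, and -0.0038 with equal totals, where 8 were lower and 8 higher). E2F7, a repressor of the family, fell from 2994 ± 188 to 1318 ± 108 (-1.18, adjusted p = 5.2e-08), and cyclin D1 (CCND1) had 23267, 22417 and 23559.7 in siControl and 14692, 13986 and 14309 in siTG2 (-0.69, adjusted p = 2e-08). The CDK inhibitors CDKN1C (p57) and CDKN2C (p18) rose by 1.01 and 0.79, the latter called in all alternatives but the fit without siTG2 replicate 2. CDKN1A (p21) had 21567 ± 479 and then 21298 ± 1188 and was not called (adjusted p = 0.86). In the MYC network 6 of 17 (35.3%) were lower and 2 (11.8%) higher (median -0.12, and 0.02 with equal totals). MYC itself had 5509.5, 5943 and 5982 in siControl and 3608, 3756 and 3999 in siTG2 (-0.62, adjusted p = 6.5e-07), and every siTG2 library was below every control. Of the MAX-binding repressors, MXD1 fell by 1.21 and MXI1 rose by 0.67, and ODC1, a target that makes polyamines, fell by 0.51. MYC was higher than control in siRNF40 (0.73), and the direct contrast of the knockdowns gave -1.35 (adjusted p = 5.1e-12).

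Targets of the Wnt pathway, which beta-catenin switches on in colon carcinoma cells, moved in both directions in siTG2, with NOTUM, NKD1 and AXIN2 higher and DKK1 lower. Of 16 measured, 7 were higher (12.8% over all genes) and 4 lower, with the same counts under equal totals (median 0.15, and 0.29 with equal totals). NOTUM, a secreted enzyme that inactivates Wnt proteins, had 277, 275 and 301 in siControl and 753, 879.9 and 736 in siTG2 (1.47, SE 0.17, adjusted p = 2.9e-06). NKD1, which binds Dishevelled, had 150.2, 189.8 and 169 and then 503, 377 and 431 (1.36, adjusted p = 4e-06), and AXIN2, a scaffold of the destruction complex, had 189, 148 and 199 and then 414, 449.6 and 454 (1.30, adjusted p = 1e-05). Each more than doubled, with no overlap between libraries. The 4 lower members were DKK1, a secreted inhibitor, which fell from 2426 ± 91.0 to 943 ± 25.1 (-1.36, adjusted p = 2.9e-10), and CD44 (-0.74), CCND1 and MYC. TCF7L2, the main TCF factor of these cells (3355 ± 149.9 and then 3300.4 ± 89.2), and the receptor EPHB2 (828 ± 51.8 and then 887 ± 55.6) were not called. NOTUM was lower than control in siRNF40 (-1.54), and the direct contrast was 3.01 (adjusted p = 5.6e-11).

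Fibronectin, thrombospondin 1 and the receptor LRP1 rose among the adhesion and matrix partners of TG2. Of 16 measured, 7 were higher and 2 lower (median 0.35, and 0.50 with equal totals). FN1, which encodes fibronectin, had 826, 760.2 and 820.2 in siControl and 1932, 1808 and 1928 in siTG2 (1.24, SE 0.11, adjusted p = 1.2e-07). LRP1, the endocytic receptor that clears TG2 from the surface, had 301, 251 and 269 and then 676, 717 and 655 (1.32, adjusted p = 1.1e-07). Both groups were tight, and both genes more than doubled. THBS1, which encodes thrombospondin 1, rose from 533 ± 51.6 to 939.6 ± 36.9 (0.82). The 2 lower partners were SDC4, the heparan sulfate proteoglycan syndecan-4, from 11383 ± 105 to 6911 ± 175 (-0.72, adjusted p = 1.6e-08), and GPR56, an adhesion receptor, which fell by 0.68 and is named to complete the pair. Integrin beta 1 (ITGB1, 34468 ± 1073 and then 32001 ± 1520.3), with which TG2 forms complexes, was not called (adjusted p = 0.24). FN1 was lower than control in siRNF40 (-0.64) and SDC4 higher (0.92), and the direct contrasts were 1.88 (adjusted p = 1.1e-10) and -1.64 (adjusted p = 1.8e-13).

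Of 14 integrin genes 3 were higher and 3 lower (21.4% each), beside 12.8% and 18.5% of all tested genes. The 3 lower ones were ITGA3, from 46621 ± 1791 to 25473 ± 164 (-0.87, adjusted p = 3.6e-09), ITGA6 (-0.63) and ITGB4 (-0.62), the chains of the laminin receptors of epithelia. The 3 higher ones were ITGB8 (0.90), ITGAV (0.43) and ITGA5 (0.27), and ITGA5 is the alpha chain of the main fibronectin receptor. ITGAV and ITGA5 were chosen for mention after their values were seen.

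Epithelial junction and keratin genes were called lower in 16 of 35 cases and higher in 5 (median -0.21, and -0.06 with equal totals, where 14 were lower and 9 higher). CLDN7, of the tight junction, had 7275, 7573 and 7041 in siControl and 3478, 4369 and 3738 in siTG2 (-0.92, adjusted p = 1.4e-07). JUP, plakoglobin of desmosomes and adherens junctions, had 7151, 7536 and 6812 and then 3879.7, 4245 and 4008 (-0.82, adjusted p = 2.9e-08), and ESRP1, a splicing factor of epithelial cells, fell from 19641 ± 156 to 11978 ± 767 (-0.72). In siTG2 CLDN7 stood at 52.9% and JUP at 56.4% of the control mean. CLDN2, the claudin of leaky epithelia, went the other way, from 89.5, 98.7 and 73.3 to 229, 212 and 214 (1.32, adjusted p = 0.0013). KRT8 (36809 ± 1964 and then 38106 ± 3513) and DSG2 (14157 ± 128 and then 14247 ± 810.3) were not called. Of the mesenchymal and matrix genes 5 of 15 were higher and 1 lower (median 0.02), with FN1 and the repressor ZEB1 (0.69) higher and LOXL2 (1807 ± 46.8 and then 1749 ± 43.7) not called. The fibroblast markers DCN, LUM and POSTN are listed at 0 in all 6 libraries.

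In the TGF-beta and BMP pathway the inhibitory SMADs rose and SMAD3 fell. Of 20 measured, 7 were higher and 4 lower (median 0.01, and 0.16 with equal totals). SMAD6 had 65.2, 68.3 and 41.3 in siControl and 239, 242 and 193 in siTG2 (1.95, adjusted p = 9.7e-06), and SMAD7 had 213, 234 and 277 and then 487, 555 and 489 (1.08, adjusted p = 8.4e-06). ID2, an inhibitor of helix-loop-helix factors and a BMP target, had 915, 1011 and 874 and then 2727, 3134 and 2971 (1.66, SE 0.082, adjusted p = 4.6e-11). All 3 were at least doubled in the mean. Of the ligands, TGFB1 fell by 0.80 (adjusted p = 2.4e-06) and TGFB3 rose by 0.97 (adjusted p = 0.0073), and the signal carrier SMAD3 fell from 9134 ± 92.1 to 5948 ± 167 (-0.62), while SMAD2 (4961 ± 111 and then 4905 ± 9.12) was not called. TGFB1 and SMAD3 were chosen for mention after their values were seen.

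Genes of the AP-1 factors and other immediate early genes were lower in 9 of 18 cases and higher in 3 (median -0.31, and -0.16 with equal totals, where 8 were lower). FOSL1, the FRA1 subunit that ERK signalling stabilises, had 8055, 8549 and 7552 in siControl and 2669, 2995 and 3093 in siTG2 (-1.46, SE 0.073, adjusted p = 5.2e-11). KLF2 had 2120.3, 1934 and 1718 and then 778, 869 and 763 (-1.26, adjusted p = 9.7e-09), and JUND fell by 0.83. FOS moved in the opposite direction, from 325, 344 and 357 to 619, 683 and 589 (0.88, adjusted p = 1.2e-05). EGR1 (7990.2 ± 197 and then 7194 ± 292) was just short of the threshold (adjusted p = 0.051). Feedback genes of RAS and ERK were lower in 9 of 19 cases and higher in 2 (5 lower and 4 higher with equal totals), with DUSP5, an ERK phosphatase, lower by 0.75 and SPRY4, an inhibitor of the pathway, higher by 0.73, and the phosphatase DUSP6 not called (16468 ± 403 and then 17398 ± 435). Among YAP targets 6 of 18 (33.3%) were lower and 3 (16.7%) higher (5 and 8 with equal totals). F3, tissue factor of coagulation, fell from 2795 ± 131 to 1010.4 ± 44.8 (-1.47, adjusted p = 4.6e-11), and MYOF, myoferlin of membrane repair, from 24489 ± 759 to 11439 ± 762 (-1.10). CTGF, another matrix protein on that list, rose from 469 ± 42.0 to 856 ± 57.6 (0.87).

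Several transporters and enzymes of cellular pH rose, with 8 of 18 called higher and 1 lower (median 0.35, and 0.49 with equal totals). Beside SLC4A8, the sodium-proton exchanger SLC9A2 had 187, 146 and 190.1 in siControl and 394, 355 and 391 in siTG2 (1.13, adjusted p = 8.9e-05), and the surface carbonic anhydrase CA12 had 45.3, 59.8 and 66.1 and then 124, 177 and 131 (1.32, adjusted p = 0.0011). The chloride-bicarbonate exchanger SLC4A3 rose by 0.77. The lactate carriers SLC16A1 (8414 ± 277 and then 7565 ± 276) and SLC16A3 (12743 ± 368 and then 12084 ± 927) were not called.

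The desaturase gene SCD and the elongase gene ELOVL1 fell, and the cholesterol exporter gene ABCA1 rose. Of 20 genes of fatty acid synthesis, elongation and desaturation, 11 were lower and 4 higher (median -0.26, and -0.12 with equal totals, where 7 were lower and 4 higher). SCD, the desaturase that makes oleate, had 12507, 12619 and 12652 in siControl and 8218, 7579.6 and 7959 in siTG2 (-0.67, SE 0.057, adjusted p = 4.6e-08). The elongase ELOVL1 fell from 4339.8 ± 243 to 2428 ± 268 (-0.84), ACSL4, which activates polyunsaturated fatty acids, by 0.83, and FADS2, a desaturase of polyunsaturated fatty acids, by 0.70. FASN (10755 ± 224 and then 9929 ± 475) was not called. Of 27 genes of cholesterol synthesis, uptake and export, 9 were higher and 2 lower (median 0.06, and 0.20 with equal totals). ABCA1, the exporter to lipoproteins, had 120.4, 129 and 135 and then 342, 274 and 324 (1.28, adjusted p = 4.2e-05). INSIG1, which holds back the SREBP factors, rose from 450.3 ± 64.3 to 781 ± 56.3 (0.80), and the synthase LSS rose by 0.61, while the factor SREBF2 (4989 ± 131 and then 5199 ± 235) was not called. In glycolysis 7 of 22 (31.8%) were lower and 4 (18.2%) higher (4 lower and 8 higher with equal totals), with ENO1 lower by 0.55 and the glucose carrier SLC2A1 higher by 0.65.

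NRF2 is a factor that switches on genes against oxidants and is held down by KEAP1. Of 20 genes of this response 6 were higher and 4 lower (median 0.12, and 0.26 with equal totals). NQO1, a quinone reductase and classical NRF2 target, had 19377, 19789 and 19097 in siControl and 40178, 45174 and 44127 in siTG2 (1.15, SE 0.059, adjusted p = 6.6e-11). SRXN1 (sulfiredoxin) rose by 0.83, HMOX1 (heme oxygenase 1) rose by 0.73 and KEAP1 fell from 2695 ± 112 to 1873 ± 80.2 (-0.52), while GCLC, of glutathione synthesis, had 8387 ± 262 and then 8991 ± 436 and was not called. SQSTM1 (p62), an autophagy receptor that also binds KEAP1, had 21331, 21020.5 and 21004 and then 43883, 47529 and 42259.9 (1.08, adjusted p = 5.6e-10). Of 30 lysosome and autophagy genes 9 (30%) were lower and 5 (16.7%) higher (8 and 10 with equal totals), the lower ones including CTSD (cathepsin D, -0.61), LAMP1 (-0.51) and the kinase ULK1 (-0.61). Chaperones and stress genes of the endoplasmic reticulum were lower in 9 of 19 cases and higher in 1, but in 2 and 3 with equal totals. HSPA5 (BiP) was called lower under every alternative run, with its smallest change under quantile normalization (log2 fold change -0.17, adjusted p = 0.0089), and had 177009, 183522 and 176742 in siControl and 116124, 110688 and 119931 in siTG2 (-0.63, adjusted p = 2.4e-07).

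TAF3 and WDR5, readers and writers around lysine 4 of histone H3, were among the genes that fell. TFIID and other initiation factors were lower in 6 of 21 cases (28.6%) and higher in 2 (9.52%), beside 18.5% and 12.8% of all tested genes. With equal totals the counts were 3 and 4. TAF3, the subunit whose PHD finger reads methylated lysine 4 of histone H3, had 756, 716 and 764 in siControl and 426, 373 and 482 in siTG2 (-0.81, SE 0.12, adjusted p = 2.7e-05), and TAF4 fell by 0.58 (adjusted p = 0.00097). The H3K4 methyltransferase complexes were lower in 5 of 16 cases (31.25%) and higher in 1 (6.25%). WDR5, the subunit they share, had 2107, 2103 and 2041 and then 1200.3, 1362 and 1290.1 (-0.70, adjusted p = 2e-06), with ASH2L (-0.43), CXXC1 (-0.47) and SETD1A (-0.42) lower as well, and KMT2D (7588 ± 541 and then 6539.9 ± 830.4) not called. Of 7 serotonin genes measured, the receptors HTR7 (-0.54, adjusted p = 0.00015) and HTR1D (-0.43, adjusted p = 0.044) were lower and MAOA, which degrades serotonin, was higher (0.38, adjusted p = 0.0093). The HTR1D call ended under equal totals, with no filter, with the replicate block and without any 1 of the 6 libraries, and MAOA was called in all alternatives but the fit without siControl replicate 3. Replication-dependent histone genes, measured here only as far as their transcripts are polyadenylated, were higher in 7 of 18 cases and lower in none (median 0.38, and 0.53 with equal totals), with HIST1H2AC rising from 769.7 ± 41.0 to 1266 ± 131 (0.71) and HIST1H2BC from 68.6 ± 15.2 to 146 ± 9.30 (1.10). These histone copies are near-identical in part, so single copies are uncertain. The list had a median of 1.82 in siRNF40.

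**Figure D4:**
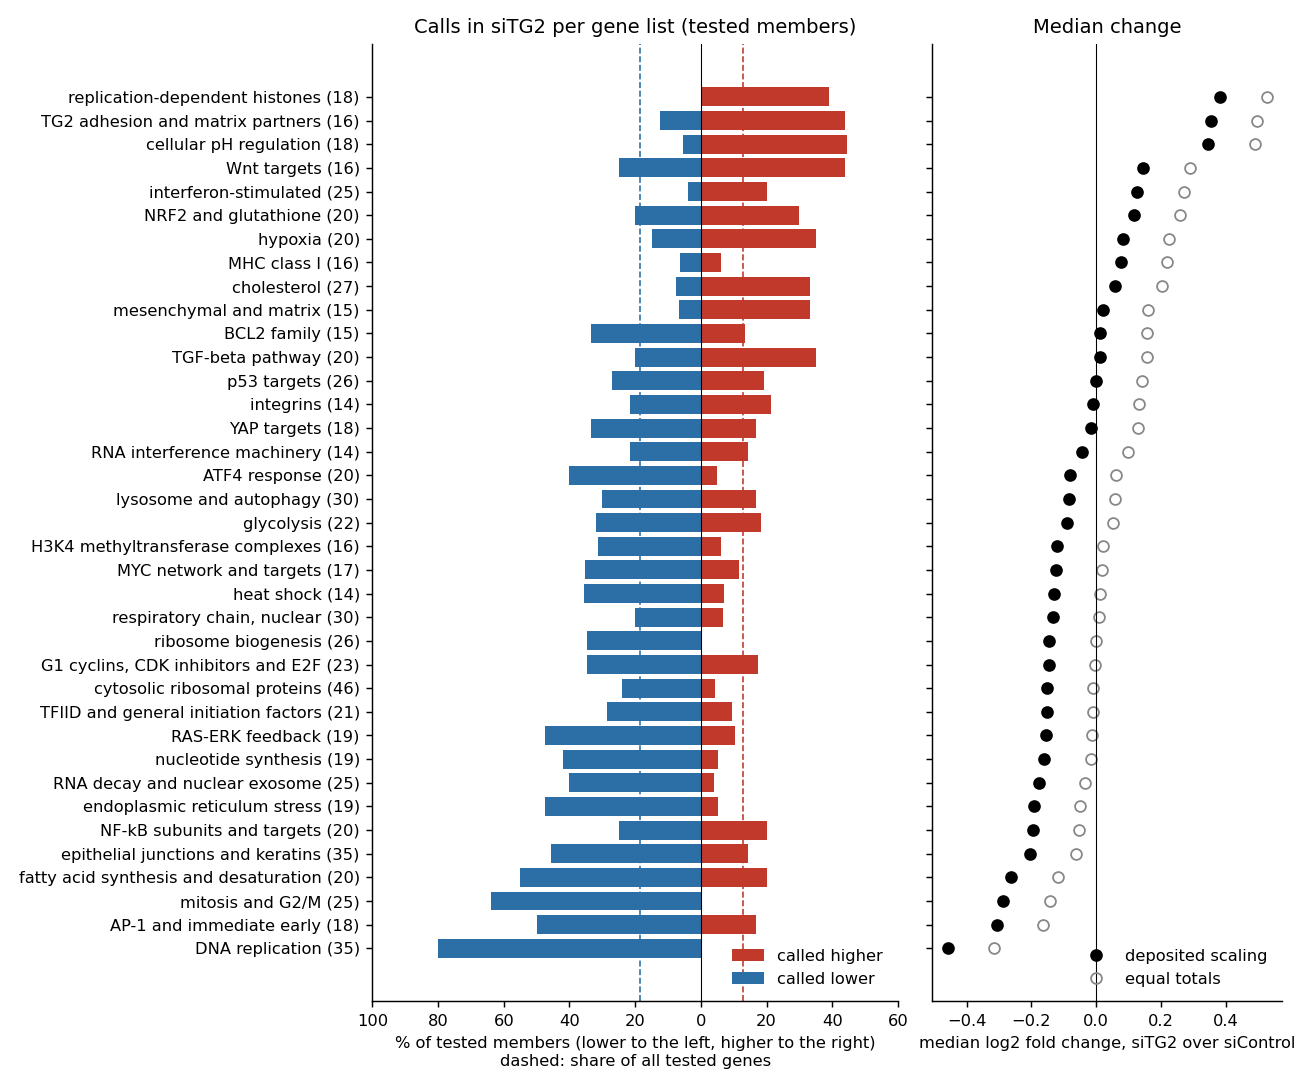
Share of the tested members of each gene list called higher (red, right) or lower (blue, left) in siTG2, with the number tested in brackets and dashed lines at the shares over all tested genes (12.8% and 18.5%), and the median log2 fold change of each list under the deposited scaling (filled) and with equal totals (open). DNA replication lies at the foot with 80.0% lower and a median of -0.46, and every open point lies right of its filled one.

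Several very abundant transcripts fell or rose, among them EREG, HMGA1, H1F0 and EZR, which fell, and FAT1 and FTL, which rose. They were chosen after their values were seen, from the 8 largest losses and 8 largest gains in RPM. HSPA5, described above, lost more RPM than EZR (1596 against 1250.3). An entry of the pseudogene class, hsa-mir-6723, gained more than FTL (1961 against 1444) and was not called on the deposited scaling (adjusted p = 0.95). EREG, the growth factor epiregulin, had 136478, 131660.0 and 141315 normalized counts in siControl and 67834, 56327 and 68363 in siTG2 (-1.09, adjusted p = 8.3e-09), and in siRNF40 it had 76009.9, 82722 and 67004. HMGA1, a chromatin protein of growing cells, had 128674, 129976 and 120326 and then 56074, 58359 and 57315 (-1.14), and the linker histone gene H1F0 had 94118, 95324 and 93348 and then 35578, 38399 and 36014 (-1.36). In siTG2 these genes kept 47.0%, 45.3% and 38.9% of the control mean. On the deposited scaling, all genes with a siRNF40 mean above 10000 had summed siTG2 values at 0.866 of those of siControl. For genes of 3000 to 10000 the ratio was 0.890. EZR (ezrin, which ties the membrane to actin) fell from 71117 ± 1660.2 to 27888 ± 384 (-1.35). FAT1, a giant cadherin, rose, with 32587, 29302 and 35939 and then 95186, 77798 and 91056 (1.43, SE 0.096, adjusted p = 2e-09), and FTL, the ferritin light chain, rose from 49219 ± 2617 to 86758 ± 6209.5 (0.82). FTL and HMGA1 have processed pseudogenes of near-identical sequence, so their counts are uncertain to that extent. The direct contrast with siRNF40 was called for all 6. The 4 lower genes ranged from -0.23 for EREG (adjusted p = 0.024) to -1.81 for EZR (adjusted p = 2e-13), and FAT1 and FTL were higher by 1.63 and 0.66 (adjusted p = 8.3e-11 and 1.2e-07).

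More genes of low level, most of them not protein-coding, were detected after TG2 depletion. With at least 1 read, 25162, 25456 and 25468 genes were seen in siControl, 27602, 27291 and 27123 in siTG2, and 25296, 25548 and 25366 in siRNF40. The siTG2 libraries thus lay above all others, by 1977 genes or 7.79% over siControl in the mean (two-sided exact permutation p = 0.1, the smallest for 3 against 3). With every library thinned to the depth of the shallowest the difference was 1970 genes (7.82%). It was 1673 genes at a minimum of 3 reads, 1468 at 5 and 1160 at 10. Protein-coding genes added 465 (3.02%) and other classes 1511 (15.2%). Among the other classes the excess was 555 pseudogenes (17.1%), 265 antisense genes (10.4%) and 258 long intergenic genes (12.6%), and genes of snRNA, miRNA, snoRNA and miscellaneous RNA were each detected 25.1% to 27.2% more often.

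The share of reads in genes of low level moved in the same direction. Genes with a mean above 0 and under 10 took 1002, 965 and 983 RPM in siControl and 1606, 1463 and 1499 in siTG2, which is 1.55 times as many, against 1083, 994 and 1055 in siRNF40. When low genes were chosen by the siRNF40 mean, which uses neither group compared, 12563 genes took 1086 and 1708 RPM, or 1.57 times. The ratio fell steadily with the level of the gene in siRNF40, from 1.73 for genes up to 1 normalized read over 1.44 for 10 to 30 and 1.11 for 300 to 1000 to 0.956 for genes above 10000. It was above 1 on each of the 23 chromosomes examined, from 1.36 on chromosome 13 to 1.82 on chromosome 16, with no overlap between libraries. Low genes that overlap a gene of high level took 1.47 times the reads and those that do not 1.61 times. In 3 equal classes by genomic length the ratio was 1.43 for the shortest genes, 1.53 for the middle and 1.68 for the longest. In a limma fit without a filter, 269 of the 17875 low genes (1.5%) were called higher and 39 (0.218%) lower, and edgeR on whole reads called 132 and 18. These 17875 genes were chosen by the mean over the 9 libraries, so genes read only in siTG2 are among them. The calls were not repeated with genes chosen by siRNF40, and their direction is not free of that choice.

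**Figure D5:**
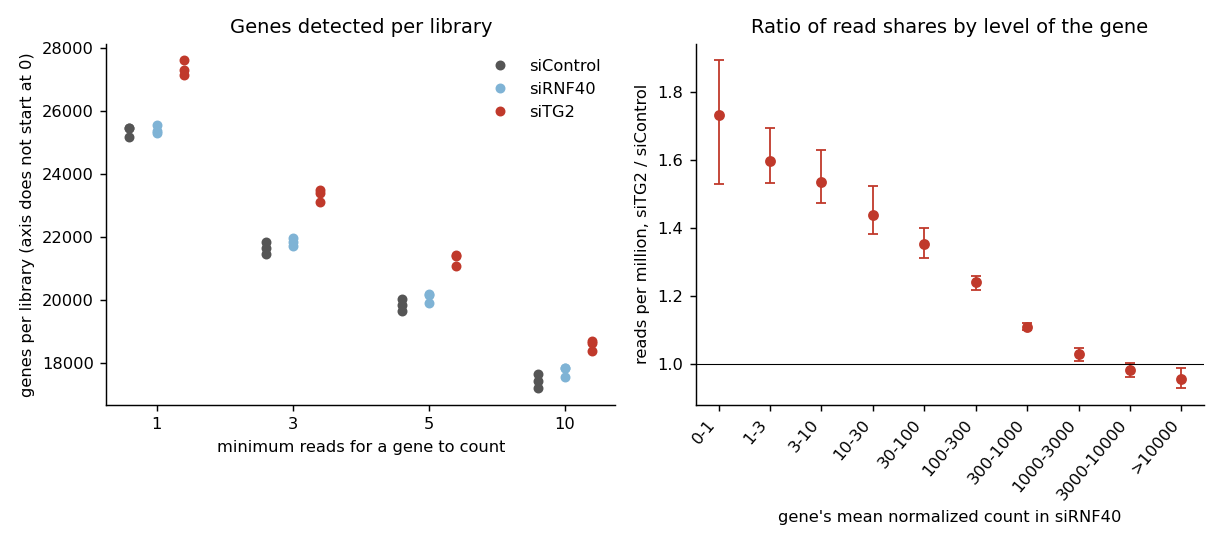
Left, genes per library with at least 1, 3, 5 or 10 reads, where the red siTG2 points (27123 to 27602 at 1 read) lie above grey siControl and blue siRNF40 points at each minimum. Right, RPM in siTG2 over siControl for genes grouped by their mean normalized count in siRNF40, with bars from the lowest siTG2 library over the highest siControl library to the reverse, falling from 1.73 to 0.956.

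TXLNB, CCDC36 and IGFBP5 were among the genes that appeared only with siTG2 in the comparison with siControl. With 0 reads in all siControl libraries and at least 3 reads in each siTG2 library there were 51 genes, 18 of them protein-coding, and 5 genes met the reverse rule. For siRNF40 in place of siTG2 the number was 20. Of the 51 genes 37 had at least 1 read in siRNF40. TXLNB, a taxilin of muscle, had 30, 4 and 23 reads in siTG2. CCDC36, a factor of meiotic recombination, had 8, 12 and 15, and IGFBP5, a binding protein of insulin-like growth factors, 9, 10 and 12. The pseudogene CTD-2228K2.2 had 10, 21 and 15 reads, and Z98049.1 had 15, 13 and 8. RP11-168O16.1 (6, 4 and 21), AP000344.3 (10, 6 and 14) and GOLGA8I (23, 3 and 4) complete the 8 with the highest mean. A fold against 0 reads is not given, and the counts are small enough that single libraries decide the order.

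Markers of other cell types lie in part in the same low range. Summed over 6 leukocyte markers the level was 18.8 to 26.9 in siControl and 31.3 to 57.5 in siTG2, with CD3E at 0 throughout, and over 6 testis markers 27.6 to 41.3 and 43.0 to 78.3, with PRM1, PRM2 and TNP1 at 0. Summed over 8 fibroblast markers it was 822 to 997 and 1022 to 1173, nearly all of it COL1A1, with DCN, LUM and POSTN at 0. Of these 3 lists 4 genes were tested and none was called. The liver marker SERPINA1 rose from 397 ± 49.5 to 605 ± 59.9 (adjusted p = 0.0012), with TTR at 0, and the neuron marker SYT1 fell from 6075 ± 359 to 3978 ± 311 (adjusted p = 7e-06). Olfactory receptor genes, 473 in the table and known from sensory neurons, had 1060, 1038 and 1115 reads in siControl and 898, 917 and 867 in siTG2, while the number detected was 27, 25 and 28 and then 34, 33 and 35. The siTG2 library with the least TGM2 transcript (replicate 1, 59.4) detected the most genes (27602) and the one with the most (replicate 3, 155) the fewest (27123), an order of 3 libraries that was not tested. The part of these markers, of the TGM2 level and of the library preparation in the wider detection was not tested.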

How the data were processed

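Polyadenylated RNA of 9 HCT116 libraries was sequenced, 3 for each of siControl, siTG2 and siRNF40. Per the submitters' processing notes, the tools were Trim Galore 0.4.1, STAR 2.7.0, HTSeq 0.12.4 and DESeq2, with builds hg19 and hg38 both named, and the coordinates in the deposited table are those of hg19. The authors deposited gene counts divided by size factors, a normalized signal, from which whole reads were recovered for 100% of values (within 0.001). The authors' deposited table also holds log2 fold changes, p-values and a test score (the DESeq2 Wald statistic) for its comparisons, used only to count shared calls. The column names abbreviate the control as NC, which was read as siControl, the only control group.

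Genes with a mean of at least 10 over 9 libraries were tested on log2(value + 1) with limma 3.58.1 (R 4.3.3), with 1 mean per group, a trended variance and Benjamini-Hochberg adjustment over all 17663 genes at 0.05. The same test without the filter gave the calls of low genes, and single values were compared with exact permutation tests over every split of the libraries. The thinning to equal depth was computed with the binomial distribution (scipy 1.17.1). Depth was 29161285 to 35743918 reads in genes, and read counts carry counting error as well as the spread between libraries. The procedure was tested on simulated data. Alternatives were edgeR 4.0.16 and DESeq2 1.42.0 on whole reads, equal totals, quantile normalization, other filters and pseudocounts, a replicate block, a fit of the 6 libraries alone and each library left out. Replicate numbers were not used to pair the libraries in the main test, since no label gives the numbers a shared source. Deviations of same-numbered siControl and siTG2 libraries correlated at 0.0133, 0.0242 and 0.0813, and those of different-numbered ones at -0.0793 to 0.0570. Values this small, from few libraries, do not settle whether replicates shared a source.

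The members and gene lists were chosen with earlier results of these data known. Genes named are TGM2, the 12 largest increases and decreases (mean at least 100, called, groups not overlapping, no pseudogene, antisense or clone symbols), from each list at most 4 called members, by size of change, and 2 uncalled ones, by mean (mean at least 50), 8 newly detected genes and 6 holders of the 3′ UTR word, and the text says where another was chosen after its values were seen. Of 964 list entries 950 matched by symbol, 1 by an older symbol and 13 had no match.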

Additional observations from a re-analysis of the deposited data

How the results depend on the processing

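Over 16 alternatives, TGM2 stayed between -2.13 (without siTG2 replicate 1) and -2.81 (without siTG2 replicate 3), and the other 23 most changed genes kept their call (highest adjusted p 0.00161). Of 281 named genes other than TGM2, 211 had the same call in every alternative, 31 called genes lost the call in at least 1, and 5 uncalled genes reversed and were called under quantile normalization, namely CDKN1A (0.16), PDIA3 (0.18), HSPA8 (0.17), NDRG1 (0.17) and HIF1A (0.20), with adjusted p of 0.0118 to 0.0437. The rest were uncalled genes that were called in the same direction in at least 1 alternative. Among them DUSP6, GCLC, SREBF2 and DICER1 were called higher with equal totals and under quantile normalization, and KRT8 and DSG2 higher under quantile normalization. EGR1 and KMT2D were called lower in the fit of the 6 libraries alone and in some other alternatives. Equal totals gave 3872 higher and 1890 lower genes, which follows from its shift of the median of all genes. With 1 library left out there were 1743 to 1907 higher and 2653 to 3009 lower genes. The fit with a replicate block gave 2122 higher and 3042 lower genes, 9203 calls against siRNF40 and a TGM2 change of -2.52, and a detection difference of 1977 genes. Among low genes edgeR called 132 higher and 18 lower (269 and 39 by limma), and leaving out 1 library gave 162 (without siControl replicate 2) to 424 (without siTG2 replicate 3) higher and 30 to 86 lower, the cause of which was not tested. Without siControl replicates 1, 2 and 3 the lower calls were 86, 79 and 81. The difference in detected genes was 1673, 1468 and 1160 at minimums of 3, 5 and 10 reads and 465 for protein-coding genes, each a subset of the genes counted at 1 read, and 1845 to 2085 with 1 library left out. The difference in RPM of low genes (539) was 206 for a mean under 3, 1098 under 30, 173 for protein-coding genes, 621 for genes chosen by the siRNF40 mean (an alternative added after seeing the data) and 498 to 569 with 1 library left out. Depth limits single low genes, most of which hold few reads per library.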

Other observations

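Genes that act on cell survival moved in both directions in siTG2. Of 15 BCL2 family genes 5 were lower and 2 higher in limma's test (4 and 4 with equal totals), beside 18.5% and 12.8% of all tested genes. BMF, a BH3-only killer protein, rose from 62.6 ± 18.7 to 193 ± 26.9 (1.64, adjusted p = 2.6e-05), while the protective BCL2L1 (BCL-XL) fell by 0.54 (adjusted p = 2e-06) and BAD, a BH3-only protein too, by 0.70 (adjusted p = 0.0087, a call that ended without siControl replicate 2 or siTG2 replicate 1). Of 26 p53 targets 7 (26.9%) were lower and 5 (19.2%) higher (3 and 10 with equal totals). SESN1 was higher by 0.71, BTG2 by 0.47 and PHLDA3 by 0.41, and MDM2, the ligase that degrades p53, was lower by 0.49 (adjusted p = 2.4e-05). Of 25 interferon-stimulated genes 5 were higher and 1 lower, with BST2 (tetherin) rising from a mean of 57.8 to 136 ± 31.0 (1.21, adjusted p = 0.0033) and IFI6 by 0.99, and ISG15 (3089 ± 312 and then 2731 ± 341) not called. ICAM1, an adhesion molecule among NF-kB targets, rose from 377 ± 36.5 to 834 ± 38.6 (1.15, adjusted p = 3.1e-07), in a list with 4 of 20 higher and 5 lower (7 and 3 with equal totals).

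Of 25 genes of RNA decay and the nuclear exosome 10 were lower and 1 higher (4 and 2 with equal totals). DIS3, the catalytic subunit of the exosome, had 4951, 4573 and 4884 in siControl and 2899, 2407 and 2878 in siTG2 (-0.82, adjusted p = 1.7e-07), with no overlap between groups. The core subunit EXOSC9 fell by 0.58 (adjusted p = 6.7e-06) and EXOSC6 rose by 0.84 (adjusted p = 3e-06), while the exonuclease XRN2 (6347 ± 195 and then 5814 ± 352) was not called. In the RNA interference machinery 3 of 14 (21.4%) were lower and 2 (14.3%) higher, near the 18.5% and 12.8% of all tested genes. With equal totals the counts were 0 and 5. AGO2 was lower by 0.51 (adjusted p = 0.035, a call that ended with equal totals, quantile normalization, no filter and DESeq2 and without siControl replicate 1, siControl replicate 3 or siTG2 replicate 2). TNRC6B was higher by 0.59 (adjusted p = 0.00077), and DICER1 was not called (3566 ± 447 and then 4070.2 ± 358). KLF5 and KLF4, factors of the intestinal epithelium, fell by 0.81 (adjusted p = 2.8e-08) and 0.69 (adjusted p = 5.4e-07).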
